A study of Homo sapiens with 12 samples.

Results

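The collagen genes of the human genome encode the chains of the triple-helical proteins that form fibrils, networks and anchoring structures outside cells. They were taken as every protein-coding gene whose symbol reads COL, a number, the letter A and a number, with no hyphen, in GENCODE release 44 placed on GRCh37 (hg19). This gave 44 genes of 20136, on 17 chromosomes, between 17.3 and 494 kb long with a median of 144.8 kb. The rule reads gene symbols only. At the promoters of these genes, H3K4me3 was profiled by CUT&RUN in BON1, a human pancreatic neuroendocrine tumor cell line, with 500000 cells per condition. The title of the series reads H3K3me3, while every sample label of the mark gives an H3K4me3 antibody, and the labels were followed. The groups were control cells (BON1/TGL/pQ) and cells overexpressing HA-Bcl-xL, an epitope-tagged anti-apoptotic protein (BON1/TGL/HA-Bcl-xL). Both were derivatives of 1 tumor line and were grown with puromycin. In each line a rabbit anti-mouse IgG reaction served as background. Peak lists of 11 of the 12 labelled samples were used, namely 3 control and 2 HA-Bcl-xL lists for H3K4me3 (the latter from replicates 2 and 3) and 3 IgG lists per line. The remaining sample, replicate 1 of H3K4me3 in HA-Bcl-xL cells, was not analysed here. The labels name replicates without saying that they were separate cultures, so the spread between them may be technical.

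Trimethylation of histone H3 at lysine 4 is laid down around the start sites of genes that are active or poised, most widely at promoters rich in CpG dinucleotides. Fibrillar collagens such as types I and III are classically made by fibroblasts, osteoblasts and stellate cells. Type IV collagens form the network of basement membranes, which epithelial and endothelial cells also secrete. In tumors of the pancreas, most fibrillar collagen is attributed to the stroma and not to the tumor cells. A promoter here reaches 1 kb to each side of the gene's most 5′ annotated position, and it counted as marked in a library where a deposited peak overlapped it by at least 1 bp.

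The 5 H3K4me3 lists held 10247 to 17711 peaks and the 6 IgG lists 244 to 2113. The IgG lists differed by line, with 1674 to 2113 peaks in control and 244 to 268 in HA-Bcl-xL cells. The lists give no read totals, so the number of fragments stacked at each peak's summit was solved from its fold enrichment and p-value. H3K4me3 peaks had a median of 9 to 12 fragments per list and no fewer than 3, and IgG peaks a median of 3 to 5. The lowest background, which scales with depth, was 0.0478 to 0.0705 fragments in the H3K4me3 lists and 0.0333 to 0.0897 in the IgG lists. A promoter without a peak therefore had no enrichment detectable at this depth, which is not a measurement that the mark was absent. In a population of cells, a mark on fewer cells and a weaker mark on every cell cannot be told apart. Fold, score and q-value of each peak are the authors' and were used only within 1 list.

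A few short stretches of DNA at collagen genes are printed here 5′ to 3′ on the strand of the gene. They come from the GRCh37 reference, with each CpG dinucleotide in capitals. The first is the only stretch within a collagen promoter that lay under peaks of more than 1 library, at COL27A1 on the plus strand of chr9:116917684-116917771. The second lies between the COL4A1 start and the nearest annotated COL4A2 start beyond it, at chr13:110959505-110959604, on the minus strand. The third is in the first intron of COL2A1, at chr12:48395356-48395445 on the minus strand, where peaks of 2 libraries overlapped. The others are the 250 bases upstream of COL1A2 (chr7:94023957-94024206, plus strand) and COL18A1 (chr21:46824830-46825079, plus strand), which had no promoter peak in any library. COL1A2 encodes a chain of type I collagen, and COL18A1 had the highest GC content of the 44 promoters.
COL27A1: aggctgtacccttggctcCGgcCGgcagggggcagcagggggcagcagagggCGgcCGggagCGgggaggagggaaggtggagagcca
COL4A1 and COL4A2: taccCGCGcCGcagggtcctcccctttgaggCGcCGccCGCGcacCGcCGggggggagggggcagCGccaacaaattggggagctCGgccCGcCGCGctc
COL2A1: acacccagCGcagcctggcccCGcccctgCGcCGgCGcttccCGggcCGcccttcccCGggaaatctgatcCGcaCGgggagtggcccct
COL1A2: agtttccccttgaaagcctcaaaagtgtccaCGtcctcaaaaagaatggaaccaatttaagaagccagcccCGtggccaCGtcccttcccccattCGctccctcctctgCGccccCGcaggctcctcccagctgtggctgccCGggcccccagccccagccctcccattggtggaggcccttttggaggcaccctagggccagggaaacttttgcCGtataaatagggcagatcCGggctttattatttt
COL18A1: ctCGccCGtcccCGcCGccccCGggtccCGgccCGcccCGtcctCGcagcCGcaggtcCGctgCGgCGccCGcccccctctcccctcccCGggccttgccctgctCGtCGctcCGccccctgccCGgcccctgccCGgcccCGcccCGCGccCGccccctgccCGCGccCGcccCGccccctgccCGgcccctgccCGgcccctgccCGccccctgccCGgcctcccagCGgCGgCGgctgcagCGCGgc
The COL27A1 stretch holds 5 CpG in 88 bases and 75% G or C. The stretch between COL4A1 and COL4A2 holds 14 CpG in 100 bases, and the COL2A1 stretch 10 in 90. The upstream window of COL1A2 has 9 CpG in 250 bases and carries TATAAA near its 3′ end, while that of COL18A1 has 37 CpG and no TATAAA. Each of these 5 sequences occurs at 1 place only in the reference.

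Few collagen promoters carried an H3K4me3 peak. In the control line 2, 0 and 0 of the 44 promoters were marked in libraries 1 to 3, where 40.4, 32.4 and 28.2% of all protein-coding promoters were. In the HA-Bcl-xL line 1 was marked in replicate 2 and 0 in replicate 3, against 38.1 and 36.5% of all promoters. The marked genes were COL27A1, in control replicate 1 and HA-Bcl-xL replicate 2, and COL4A1, in control replicate 1. Over the H3K4me3 libraries, then, 2 of 44 collagen promoters (4.55%) had a peak in 1 or more, and 48.2% of all promoters did. COL4A1 was among the 6.88% of all promoters marked in exactly 1 library, and COL27A1 among the 41.3% marked in at least 2. No collagen promoter was marked in every library, a state reached by 21.3% of all promoters. The other 42 had no peak in any library, as had 51.8% of all promoters. None of the 44 had an IgG peak in any of the 6 IgG libraries, and 0.785% of all promoters had one in at least 1 of them. Control replicate 1 had the longest list and held both marked genes, so without it the control line had none.

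**Figure D1:**
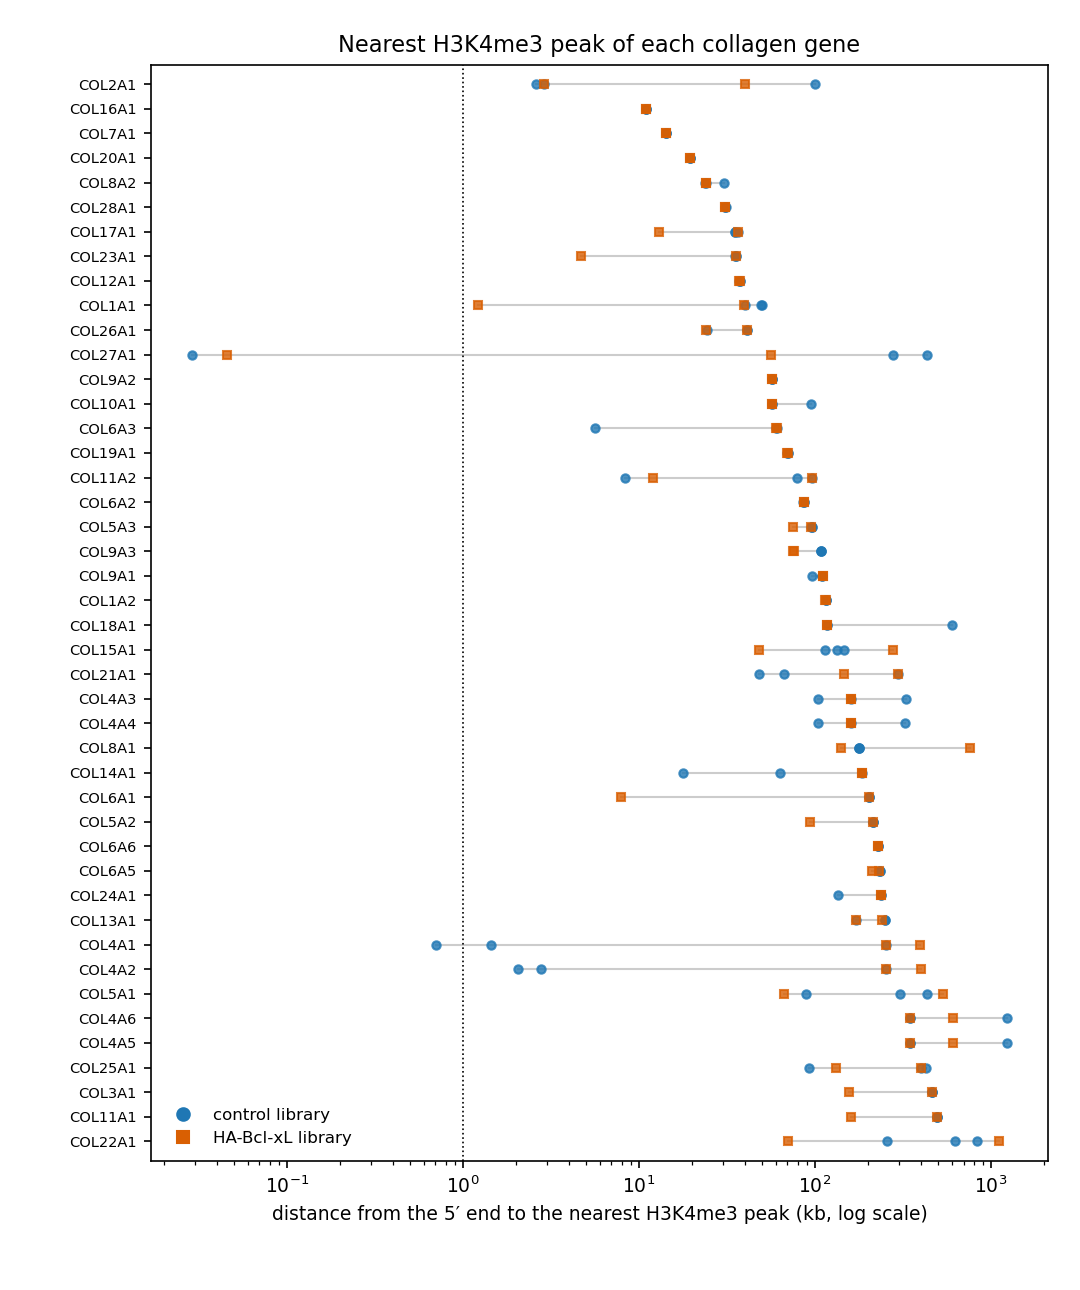
Distance from the 5′ end of each of the 44 collagen genes to its nearest H3K4me3 peak in each library (kb, log scale), genes ordered by their median over the 5 libraries. Circles are control and squares HA-Bcl-xL libraries, grey lines span the lowest and highest library, and the dotted line marks 1 kb, left of which lie only COL27A1 in 2 libraries and COL4A1 in 1.

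COL27A1, the gene of a fibrillar collagen of cartilage, had the best supported of the collagen promoter peaks (5′ end at position 116917817 of chromosome 9, plus strand). In control replicate 1 its peak ran from 116917684 to 116917788 with the summit at position -72 relative to the start and 9 fragments there. In HA-Bcl-xL replicate 2 it ran from 116917683 to 116917771 with the summit at -97 and 12 fragments. The other 3 libraries had no peak, and their nearest lay 278112 and 431881 bp away in control replicates 3 and 2, and 56714 bp away in HA-Bcl-xL replicate 3. The 2 peaks thus covered nearly the same bases, those printed above, but came from 1 library of each line. Ranked by the authors' p-value within its own list, the peak stood at percentile 60.7 in control replicate 1 and 79.2 in HA-Bcl-xL replicate 2. The median promoter peak of all genes stood at percentile 56.2 to 57.6, with 10 to 12 fragments, so these 2 were ordinary promoter peaks of their lists. The authors' fold enrichment was 7.93 and 9.34. HA-Bcl-xL replicate 2 had a second COL27A1 peak in the first intron, 942 bases downstream of the start, with 6 fragments and at percentile 14.4.

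COL4A1 and COL4A2, which encode the most widespread chains of basement membrane collagen, lie head to head on chromosome 13 and are read in opposite directions. The COL4A1 start is at position 110959504, and the nearest COL4A2 start beyond it, at 110959605, is the other end of the CpG-rich stretch printed above. GENCODE also places a COL4A2 start further 5′, at 110958159 inside COL4A1, and the rule of the most 5′ end takes that one. No library had a peak on the stretch between the facing starts. Control replicate 1 had a peak from 110960211 to 110960288, with its summit at -751 relative to the COL4A1 start, on 7 fragments and at percentile 30.1. It lay over an exon of COL4A2 that holds the end of its 5′ UTR and the start of its coding sequence. Control replicate 2 had another from 110960959 to 110961057, in an intron of COL4A2, again with 7 fragments, and with its summit at -1501 relative to the COL4A1 start. The 2 peaks did not overlap. In control replicate 3, HA-Bcl-xL replicate 2 and HA-Bcl-xL replicate 3 the nearest peak to COL4A1 was 253476, 253529 and 398360 bp away. The COL4A1 call in control replicate 1 was lost when each list was shortened to its 10247 strongest peaks.

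**Figure D2:**
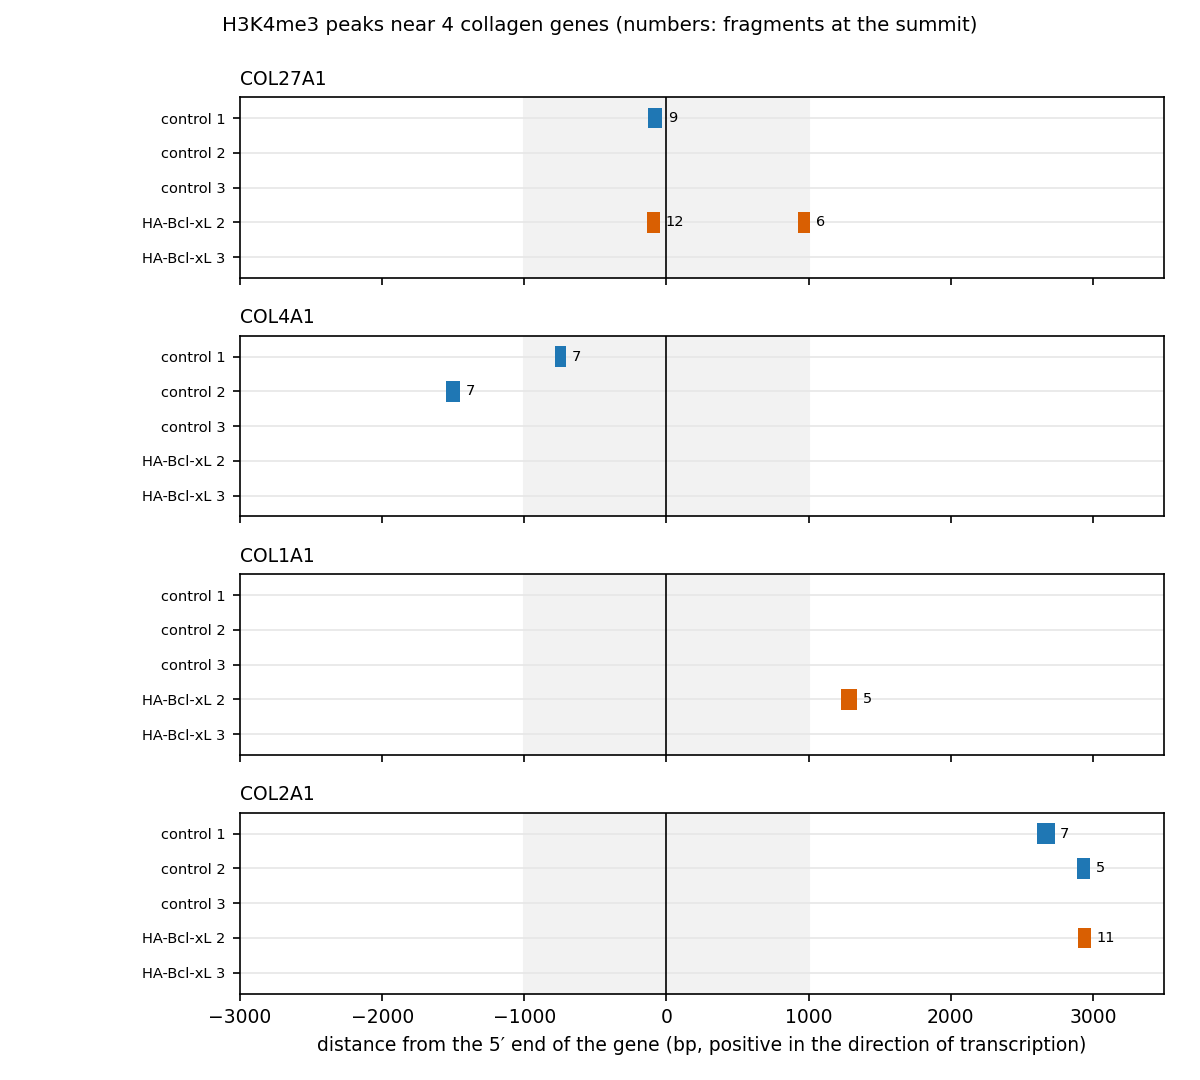
H3K4me3 peaks around the 5′ ends of COL27A1, COL4A1, COL1A1 and COL2A1 in the 5 libraries, drawn to scale in bp along the direction of transcription. Blue bars are control and orange bars HA-Bcl-xL peaks with the number of fragments at the summit beside them, and the grey band is the 1 kb promoter, which holds 4 bars in all, 3 at COL27A1 and 1 at COL4A1.

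A wider promoter of 2.5 kb on each side added 2 collagen genes. COL4A2 was reached by the control replicate 1 peak described above. COL1A1, the gene of the main chain of type I collagen, had a peak in HA-Bcl-xL replicate 2 alone, from 48277651 to 48277768 on chromosome 17, in an intron 1294 bases downstream of the start. It rested on 5 fragments, at percentile 15.4 of its list. With this window the control libraries marked 3, 1 and 0 collagen genes and the HA-Bcl-xL libraries 2 and 0. The shares of all genes were 45.8, 37.8 and 33% in control and 43.4 and 41.8% in HA-Bcl-xL libraries. Over all libraries 4 of 44 collagen genes (9.09%) and 53.5% of all genes had a peak in at least 1. Within 1 kb of the start of any annotated transcript the counts were 3, 0 and 0 in control and 2 and 0 in HA-Bcl-xL libraries, against 48.4, 39.3, 34.4, 45.8 and 44% of all genes. The 4 collagen genes marked in at least 1 library were the same, and 56.6% of all genes were marked so. The IgG lists gave 1 call under either definition, COL9A2 in control IgG replicate 2, on 3 fragments. In that IgG library 0.412% of all genes had a peak within 2.5 kb and 0.616% at any transcript start, and over the 6 IgG libraries 1.47 and 2.27% did.

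Just outside the wider window lay COL2A1, the gene of the main fibrillar collagen of cartilage, with the most libraries near its start. Control replicate 1 had a peak with its summit 2700 bases downstream of the 5′ end, control replicate 2 one at 2931 bases and HA-Bcl-xL replicate 2 one at 2964 bases, on 7, 5 and 11 fragments. All 3 were in the first intron, and those of control replicate 2 and HA-Bcl-xL replicate 2 overlapped on the COL2A1 bases printed above. The edges of the peaks stood 2607 to 2892 bp from the start. Control replicate 3 and HA-Bcl-xL replicate 3 had no peak within 40 kb, the nearest being 100502 and 40349 bp away.

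The remaining fibrillar genes had no peak within 2.5 kb of their starts. The nearest was at COL11A2, a cartilage collagen gene, at 8344 bp in control replicate 1 and 12137 bp in HA-Bcl-xL replicate 3, and at 79519 to 96724 bp in the other libraries. COL1A2, whose product joins that of COL1A1 in type I collagen, had its nearest peak 114639 to 116113 bp away over the 5 libraries. COL3A1, which encodes the collagen of distensible tissues, had it 156307 to 466644 bp away. COL5A1 and COL5A2, whose chains start type I fibrils, had it at 66591 to 533378 bp and 94554 to 215705 bp. COL11A1, a partner of COL11A2 in type XI collagen, had it at 159803 to 494082 bp. For COL5A3 and COL24A1 it was at 75735 to 96053 bp and 135837 to 239361 bp. By class, 1 of 11 fibrillar promoters was marked in at least 1 library within 1 kb and 2 within 2.5 kb, beside 48.2 and 53.5% of all genes.

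Of the 6 type IV genes, 1 was marked in at least 1 library within 1 kb and 2 within 2.5 kb, where 48.2 and 53.5% of all genes were. The other 4 form head-to-head pairs as well, with COL4A3 and COL4A4 starting 171 bp apart and COL4A5 and COL4A6 341 bp apart. These encode the chains of specialised basement membranes such as that of the kidney filter. Neither pair had a peak within 100 kb in any library, as was so for 12.6% of all genes. The nearest peaks were 104545 bp from COL4A4 and 348164 bp from COL4A6.

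No other class had a marked promoter within 1 kb or 2.5 kb in any library, while 48.2 and 53.5% of all genes had one in at least 1. This holds for the 10 fibril-associated (FACIT) genes, the 6 beaded-filament and related genes, the 4 transmembrane collagens, the 3 short-chain collagens, the 2 multiplexins, COL7A1 of the anchoring fibril and COL26A1. Among the type VI chains, which build the microfibrils around many cell types, COL6A1 had a peak 7967 bp away in HA-Bcl-xL replicate 2 and at 202676 to 202786 bp in the other libraries. COL6A3 had one 5618 bp away in control replicate 3 and at 60570 to 61209 bp in the others. The nearest to COL6A2 was at 86334 to 86992 bp in all 5. COL17A1, a transmembrane collagen of the epithelial hemidesmosome, had its nearest peak 13065 to 36656 bp away. For COL18A1, a multiplexin of epithelial and vascular basement membranes, it was 117040 to 603891 bp away.

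Only COL16A1, COL7A1 and COL20A1 of the collagen genes, 6.82%, had a peak within 25 kb in every H3K4me3 library, beside 37.5% of all genes. They are described for that reason, after their values were seen. Near COL16A1, which encodes a fibril-associated collagen, the peak lay 10940 to 10950 bp upstream of the 5′ end in all 5 libraries. The bases shared by all 5 are chr1:32180870-32180955, given here on the minus strand of the gene with CpG in capitals.
COL16A1 upstream: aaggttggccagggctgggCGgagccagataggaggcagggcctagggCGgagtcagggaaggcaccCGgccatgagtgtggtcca
The summit held 5, 8 and 10 fragments in the control libraries, and 8 and 11 in those of HA-Bcl-xL. It stood between percentiles 18.2 and 86.7 of its lists. No annotated start of any coding or noncoding gene was nearer to it than that of COL16A1, and no IgG peak overlapped it. The nearest peak to COL7A1, 14271 to 14330 bp away, lay on or within 13 bp of an annotated start of UQCRC1, a respiratory chain gene. That of COL20A1, 19444 to 19650 bp away, lay 51 to 317 bp from a start of ARFGAP1, a gene of Golgi transport.

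In every H3K4me3 library the median collagen gene lay further from a peak than the median gene of the genome. The median collagen gene was 91.2, 102.9 and 104.6 kb from its nearest peak in the control libraries, and 95.6 and 103.5 kb in those of HA-Bcl-xL. The median protein-coding gene was 7.80, 22.4, 33.7, 11.2 and 13.6 kb from one in the same libraries. Within 10 kb, 9 collagen genes (20.5%) and 60.5% of all genes had a peak in at least 1 library. Within 50 kb the figures were 20 collagen genes (45.5%) and 78.1%. In 28 collagen genes, 63.6%, no library had a peak within 25 kb, beside 30.6% of all genes, and in 13, 29.5%, none had one within 100 kb, beside 12.6%.

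**Figure D3:**
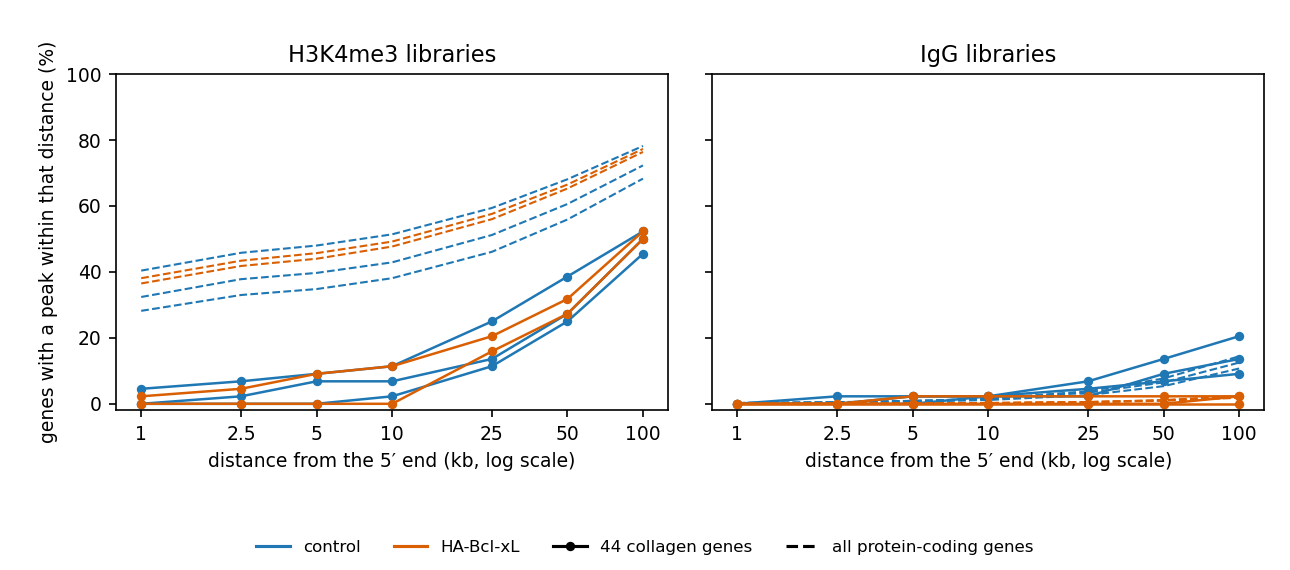
Share of genes with a peak within 1 to 100 kb of the 5′ end (log scale), for H3K4me3 libraries on the left and IgG libraries on the right; points and solid lines are the 44 collagen genes, dashed lines all protein-coding genes, blue control and orange HA-Bcl-xL. In the H3K4me3 libraries every collagen line stays below every dashed line, and at 100 kb the collagen shares are 45.5 to 52.3% against 68.3 to 78.2% of all genes.

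Base composition at the collagen promoters was near that of all genes in GC content and lower in CpG. Over the 2 kb around the 5′ end, GC content ran from 33.6 to 75.9% with a median of 57.6%, and the median of all genes was 55.0%. The ratio of observed to expected CpG, which is low where CpG has been lost in evolution, had a median of 0.52 in collagen genes and 0.61 in all genes. It was 0.69 in genes marked in every library and 0.36 in genes marked in none. Of the 15 collagen promoters in the upper 5 deciles of this ratio 2 were marked in at least 1 library, where 71.8% of all 10068 such promoters were. Of the 29 in the lower 5 deciles none was marked, against 24.6% of 10068. The counts split alike by GC content, with 2 of 25 marked in the upper 5 deciles against 56.5% of all, and 0 of 19 in the lower 5 against 39.8%. The collagen counts were thus below the share of all genes on both sides of either division.

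**Figure D4:**
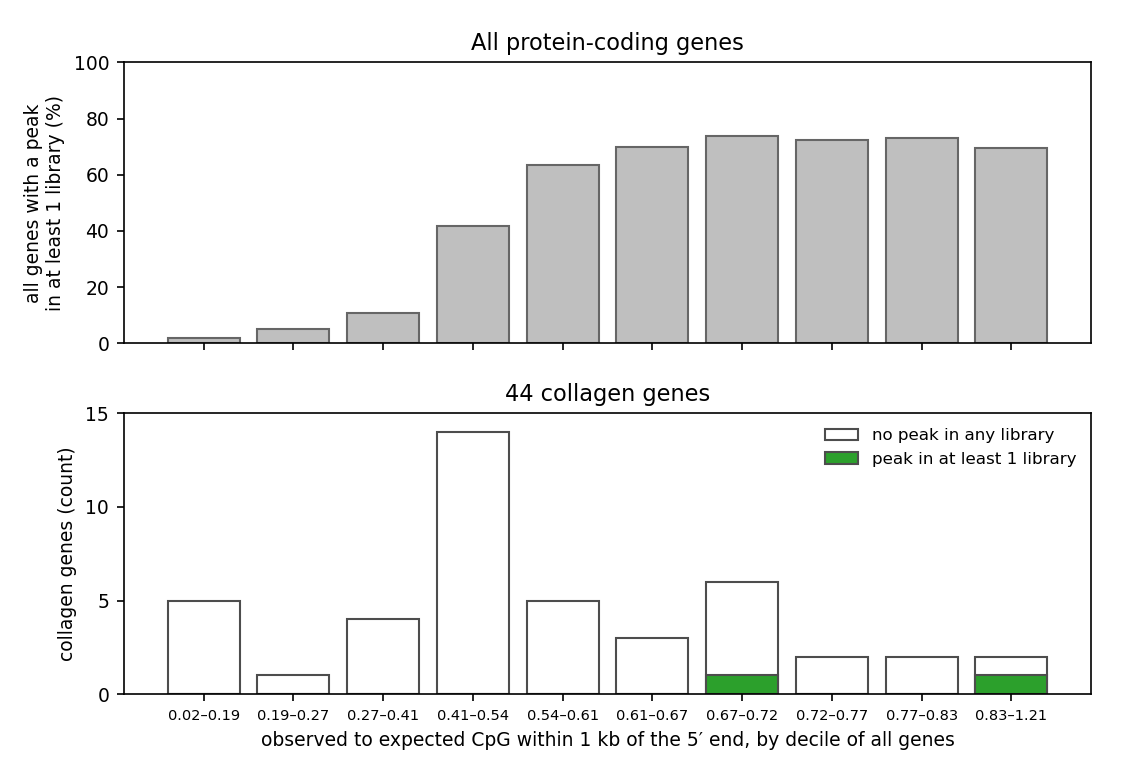
Promoters grouped by decile of the observed to expected CpG ratio within 1 kb of the 5′ end. The upper bars give the share of all protein-coding genes with an H3K4me3 peak in at least 1 library (%), from 1.84% in the lowest decile to 73.8% in the seventh, and the lower bars count the 44 collagen genes, with the 2 marked ones in green.

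Short promoter motifs were searched in the 250 bases upstream of each 5′ end. A GC box, the letters GGGCGG or their complement CCGCCC, was present in 22 of 44 collagen windows (50%) and in 48.8% of all. Both marked collagen genes had one. Over all genes 62.9% of promoters with these letters and 34.1% of those without were marked in at least 1 library. CCAAT or its complement ATTGG was found in 16 collagen windows (36.4%) and in 33.1% of all. TATAAA on the strand of the gene, in the last 50 bases only, was found at 4 collagen genes (9.09%), COL1A2 among them, against 3.38% of all. Over all genes 17.2% of promoters with TATAAA were marked and 49.3% of those without. GC boxes lie in CpG-rich windows by their own letters, so the counts of the 2 measures share bases.

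Taking the most 5′ end of each gene, another protein-coding start lay within 1 kb of 5 of the 44 collagen starts, 11.4%, beside 17.5% of all genes. None of those 5 neighbours was marked, while over all genes 80.6% of such neighbours were marked in at least 1 library. The 5 collagen genes were the COL4A3 and COL4A4 pair, the COL4A5 and COL4A6 pair, and COL19A1, whose start is 680 bp from that of LMBRD1, a gene of lysosomal cobalamin export. In both pairs the neighbour is itself a collagen gene, so its unmarked state repeats the collagen counts above. LMBRD1 was the only neighbour from outside the 44 genes. Starts of other transcripts are not in this count, so it leaves out the COL4A2 start at 110959605 in the COL4A1 window. Another start lay within 5 kb of 8 collagen genes, 18.2% beside 25.2% of all genes, of which 1 such neighbour was marked in at least 1 library, COL4A1 beside COL4A2. Within 10 kb it was 9 genes, 20.5% beside 32.9% of all genes, and 2 marked neighbours, the second being SLC39A7 near COL11A2. Over all genes 68.8% of the nearest neighbours within 5 kb and 62.5% of those within 10 kb were marked in at least 1 library.

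Too few collagen promoters were marked in either line for a change with HA-Bcl-xL overexpression to be seen in their number. The control libraries had 0.667 ± 1.15 marked collagen promoters (SD, n = 3) against 0.5 ± 0.707 in HA-Bcl-xL cells (SD, n = 2). Subtracting control from HA-Bcl-xL gave -0.167, which was smaller than the pooled SD between replicates of 1.03. With the control mean at 0.667, loss of every marked promoter would also have stayed within that SD. Without control replicate 1 the difference was 0.5. No collagen promoter was marked in every HA-Bcl-xL and no control library, a pattern seen at 0.844% of all promoters. None showed the opposite pattern either, which 0.248% of all promoters did. A comparison of peak width between the lines could not include any collagen gene, because it needs a peak in all 5 libraries. Over the 4289 genes that had one, limma called 0 at an adjusted p of 0.05, with 210 at an unadjusted p below that value. Effects on promoters without peaks in either line were not measured here.

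Between 10.5 and 66.7% of the genes in 5 lists of collagen-related genes were marked in at least 1 library, and 0 to 25% in every library, beside 48.2 and 21.3% of all protein-coding promoters. Of 24 genes for modification, folding and export of procollagen in the endoplasmic reticulum, 16 (66.7%) had a promoter peak in at least 1 library and 6 in every library. Those 6 were P3H1, a prolyl 3-hydroxylase, PLOD3, a lysyl hydroxylase with glycosyltransferase activity, SERPINH1, the collagen chaperone HSP47, FKBP14, a prolyl isomerase, TMEM38B, an ion channel of the endoplasmic reticulum, and CREB3L1, a transcription factor of secretory cells. The counts were 14, 13 and 9 in control and 13 and 14 in HA-Bcl-xL libraries, beside 40.4, 32.4, 28.2, 38.1 and 36.5% of all promoters. P4HA1, a catalytic subunit of prolyl 4-hydroxylase, was marked in 4 libraries, and its partner P4HB in 2. The 8 without a peak included P4HA3, P3H2 and COLGALT2, which also had none at any transcript start or within 2.5 kb. PLOD2, SEC23A and MIA2 were also among the 8 but had a peak in all 5 libraries at the start of another transcript. SEC24D and P4HA2, the rest of the 8, had one there in 4 libraries each, and P4HA2 also within 2.5 kb in 3. Several of these genes share a promoter with a neighbour, as FKBP10 and P3H4 do with each other, 76 bp apart. Of the 6 marked in every library, PLOD3 starts 255 bp from ZNHIT1, FKBP14 702 bp from PLEKHA8 and P3H1 161 bp from C1orf50. Those neighbours were marked in 5, 5 and 4 libraries, so the peaks were not assigned to either gene.

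Of 13 genes for procollagen processing and cross-linking outside the cell, 3 (23.1%) had a peak in at least 1 library and none in every library, where 48.2 and 21.3% of all promoters did. LOXL3, a lysyl oxidase, was marked in 4 libraries, and ADAMTS14, a procollagen N-proteinase, and LOXL4 in 1 each. LOX itself, LOXL1, LOXL2, BMP1, the procollagen C-proteinase, and ADAMTS2 had none. PCOLCE, an enhancer of that proteinase, had none within 1 kb and a peak in 4 libraries within 2.5 kb.

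Laminins and other basement membrane proteins, which assemble beside type IV collagen, had 9 of 17 promoters (52.9%) marked in at least 1 library, near the 48.2% of all promoters. LAMC1, LAMB2 and NID1, or 17.6%, were marked in every library, beside 21.3% of all. The library counts were 8, 3 and 3 in control and 5 and 6 in HA-Bcl-xL libraries, and 1 of the 17 promoters also had an IgG peak. Of all promoters, 40.4, 32.4 and 28.2% were marked in the control and 38.1 and 36.5% in the HA-Bcl-xL libraries. An IgG peak in at least 1 IgG library was found at 0.785% of them. Of 19 interstitial matrix proteins 2 (10.5%) were marked, THBS1 in every library and FN1, fibronectin, in control replicate 2 only. Of 10 collagen receptors 3 (30%) were marked, namely the integrin genes ITGA1 and ITGA2 in every library and ITGA11 in 1. The start of ITGA1 coincides with that of PELO, so its peak cannot be assigned to either gene. ITGB1, the shared beta chain of these integrins, had none within 1 kb of its most 5′ end and a peak in all 5 libraries at another transcript start. DDR1 and DDR2, the collagen-binding kinases, had none. These lists were compared by count alone, and no test of one against another was made.

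**Figure D5:**
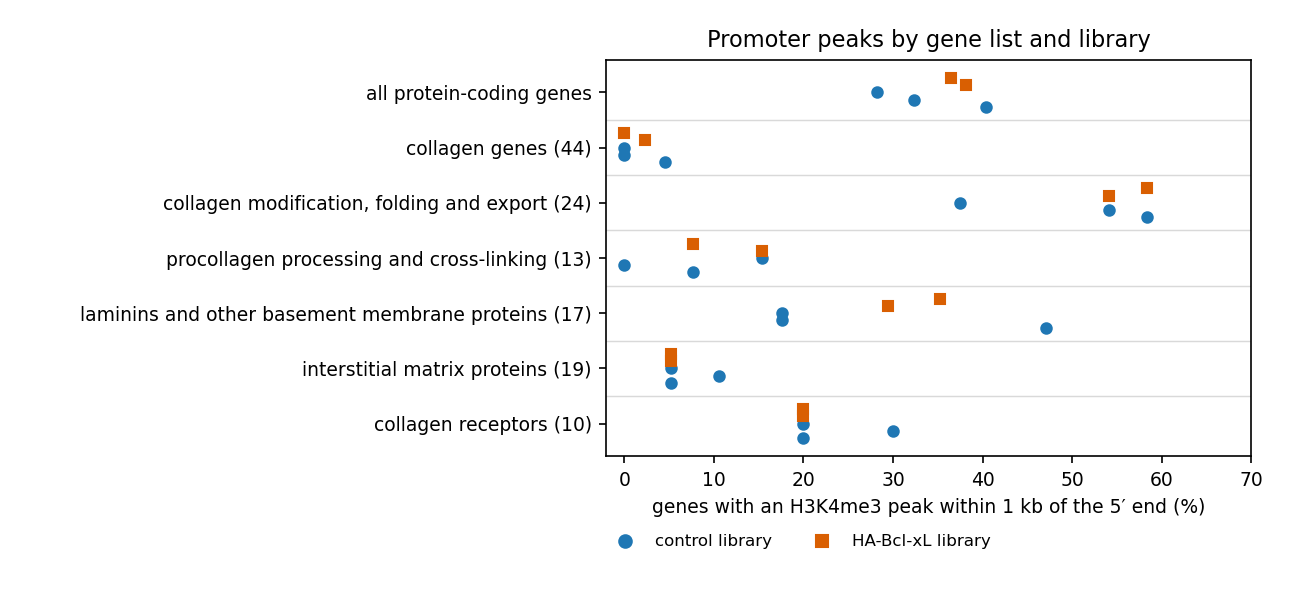
Share of promoters marked by H3K4me3 (%), per library, at a window of 1 kb, for all protein-coding genes, the 44 collagen genes and 5 lists of collagen-related genes with the number of genes in parentheses. Blue circles are control and orange squares HA-Bcl-xL libraries; the collagen points lie between 0 and 4.55% and those of all genes between 28.2 and 40.4%.

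The labelled cell type was checked against marker genes, beside 48.2% of all promoters marked in at least 1 library and 21.3% in every library. All 5 epithelial markers were marked in at least 1 library, KRT8, KRT18 and CDH1 in every library, EPCAM in 4 and KRT19 in 1. The starts of KRT8 and KRT18 are 1083 bp apart, so their windows overlap and the same peak can mark both. Of 8 neuroendocrine markers 6 were marked in at least 1, NEUROD1, SCG2, SCG3 and CHGB in every library, SYP in 2 and CHGA in 1. The start of NEUROD1 is 162 bp from that of CERKL, which was marked in 5 libraries as well. INSM1 and ENO2 had no peak within 1 kb, and within 2.5 kb INSM1 had one in 5 libraries and ENO2 in 1. Of 8 fibroblast and stellate markers 7, among them PDGFRA, PDGFRB, DCN, LUM and FAP, had no promoter peak. Of these 7, VIM, an intermediate filament gene, had a peak in 1 library within 2.5 kb of its start and in 1 within 1 kb of any of its transcript starts. The exception was ACTA2, marked in all 5 libraries, whose start is 682 bp from that of FAS, itself marked in 4. None of the 3 endothelial markers in the annotation and none of the 4 leukocyte markers had a peak. The collagen promoters were thus recorded as mostly unmarked in libraries that marked many of the epithelial and neuroendocrine markers.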

How the data were processed

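Per the labels, CUT&RUN libraries were made with a ThruPLEX kit. The submitters' processing notes name the hg19 build, bcl2fastq 2.20, Trimmomatic 0.36, Bowtie2 2.2.9, MACS2 2.1.1 and deepTools 3.5.1, with no role or order. Duplicate treatment and the peak caller's control and settings are not given in the sources used here. The authors deposited 1 peak list per library, so replicates were not pooled. Each peak has a deposited score, a fold enrichment as a ratio, and −log10 values of p and q, and no q in the lists exceeded 0.01. Fragment numbers at summits were solved from the deposited fold, read as (n + 1) / (background + 1), and a Poisson p. In the lists 95.9 to 99.97% of peaks gave a whole number, with a tolerance of 0.001 in −log10 p. The lists do not record whether n counts fragments or single reads, and it is called fragments throughout.

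Peaks of the 22 autosomes and of X and Y were assigned to genes of GENCODE release 44 on GRCh37. Coordinates are 1-based, and 0 peaks ended beyond the reference chromosomes. Sequences and base composition came from the GRCh37 genome. Distances to peaks run from the nearest edge. Width differences were fitted with limma 3.58.1 (R 4.3.3) on the log2 number of promoter bases under peaks, after centring libraries on their medians, and p-values were adjusted by Benjamini-Hochberg. The gene assignment and the limma step were tested on simulated data. Python 3.11.15, numpy 2.4.6, pandas 2.3.3, scipy 1.17.1 and matplotlib 3.10.9 were used.

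The members and gene lists were chosen with earlier results of these data known. The naming rule took every collagen gene with a peak within 1 kb, those reached only by 2.5 kb or another transcript start with that setting, and the rest by structural class. Of the other lists, genes marked in every or no library could be named, and others named here were picked with their values in view. The alternatives tried were summits inside the window, a 2.5 kb window, any transcript start, equal list lengths, peaks with −log10 q of 5 or more, removal of peaks overlapping IgG, single libraries left out and a replicate block. Distances of 5 to 100 kb were added after seeing the data. PECAM1, an endothelial marker, was not matched in the annotation and not used here.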

Additional observations from a re-analysis of the deposited data

How the results depend on the processing

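Of 27 means per line and differences between lines recomputed under other settings, 25 were the same or moved by less than 1 SD between replicates, as did all 16 recomputed without 1 library. For H3K4me3 that SD was larger than the value itself. It was 1.15 for the control mean of 0.667, 0.707 for the HA-Bcl-xL mean of 0.5 and 1.03 for the difference of -0.167. A fall to 0 or a change of sign could thus count as less than 1 SD, so this tally does not show stability. The count of collagen promoters marked in every library was 0 under every setting. COL27A1 was called in 2 libraries under each window or peak setting that kept every library. The mean number of control IgG calls rose from 0 to 0.333 per library with a 2.5 kb window and likewise with any transcript start, in each case from COL9A2. Within 2.5 kb, COL4A1 was called in 2 libraries in place of 1, and with equal list lengths in 0. COL4A2 and COL1A1 went from 0 to 1 library with a 2.5 kb window and with any transcript start. Without control replicate 1 the control mean was 0, and without control replicate 2 or 3 it was 1. Without HA-Bcl-xL replicate 2 the HA-Bcl-xL mean was 0 and without replicate 3 it was 1. The difference between the lines then ran from -0.667 to 0.5, and with equal list lengths it was 0.167, so its sign changed with the libraries and peaks used. With a replicate block, over the 2 numbers that both lines have, it was 0.5. Nothing in the labels says that equal numbers pair the libraries. For peak width, deviations of same-numbered libraries from their line means correlated at 0.0256 and 0.048 over 4289 genes, none of them a collagen gene. The deviations of 2 HA-Bcl-xL libraries from their own mean are exact opposites, so these correlations are not independent of each other. In the width comparison the block gave 13 genes in place of 0, and leaving out control replicate 2, HA-Bcl-xL replicate 2 or HA-Bcl-xL replicate 3 gave 1, 3 and 9, while the other settings gave 0. No collagen gene entered any of these width fits, which therefore say nothing about collagens. Depth limits every absence reported here, since no peak in the H3K4me3 lists had fewer than 3 fragments.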

Other observations

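Inside the collagen genes, more than 2.5 kb from the 5′ end, 23 H3K4me3 peaks lay in 16 genes, 22 of them in introns. They had 3 to 11 fragments, with a median of 4, and a median rank at percentile 13.2 of their lists. The density was 0.608, 0.456 and 0.608 peaks per Mb in control replicates 1 to 3 and 0.912 in each HA-Bcl-xL library. Bodies of all protein-coding genes had 3.47, 2.34, 2.08, 3.25 and 3.12 per Mb. The 3 control IgG libraries had 0.760, 0.912 and 0.456 per Mb in collagen genes and 0.63, 0.60 and 0.83 in all genes. For IgG in HA-Bcl-xL cells the densities were 0, 0 and 0.152 per Mb in collagen genes and 0.0729, 0.0834 and 0.0691 in all genes. Within collagen genes the H3K4me3 and IgG densities thus overlapped in control and did not in HA-Bcl-xL cells. The IgG lists of HA-Bcl-xL cells were far shorter, with 244 to 268 peaks against 1674 to 2113 in control. The contrast therefore does not compare H3K4me3 between the lines. Of the 23 peaks, 3 were those in the COL2A1 intron, and 2 of these overlapped each other between libraries.

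In COL23A1, a transmembrane collagen, HA-Bcl-xL replicate 2 had an intron peak from 178012603 to 178012691 on chromosome 5 with 3 fragments. HA-Bcl-xL IgG replicate 3 had an overlapping peak with 9 fragments, and control IgG replicate 3 one with 6 fragments that ended at 178012596. In COL26A1, control replicate 1 and HA-Bcl-xL replicate 3 had intron peaks with 5 and 6 fragments, from 101030557 to 101030656 and from 101030291 to 101030391 on chromosome 7, which did not overlap. These genes were picked after their values were seen.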
